A study of Mus musculus with 9 samples.

Results

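Different short hairpin RNAs against Zeb1 were expressed in the same leukaemia line, and their populations were set directly against each other: 3 arrays of cells carrying hairpin sequence D (shZeb1_D, titled ZEB D, arrays 13 to 15) and 3 arrays of cells carrying sequence C (shZeb1_C, titled ZEB C, arrays 10 to 12). These are 6 of the 9 arrays of the study. The other 3 (Scr, titled SCR, arrays 7 to 9) carried a negative control construct, and they are used here to say which of the hairpin populations departed from the control. All 9 were C1498 cells, a mouse cell line labelled as acute myeloid leukaemia, infected overnight with lentivirus that also encoded green fluorescent protein, isolated as positive for that protein 2 weeks later and profiled from total RNA on 1-colour arrays. Each group is thus a population selected for the vector and made with 1 construct, and whether it was cloned is not stated. Whether the arrays within a group trace back to independent infections is not stated, and p-values therefore reflect variation among these arrays that could be technical in origin. Every probe set with 1 gene symbol was compared, 19572 in all, and values are log2 RMA signals with a median of 7.11. Per-array values are listed in the order of the array numbers, and differences are shZeb1_D minus shZeb1_C on the log2 scale unless another pair is named.

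ZEB1 is a zinc finger and homeodomain transcription factor that binds E-box sequences and recruits corepressors to silence epithelial genes, and it is a classical driver of the epithelial to mesenchymal transition. It also acts in lymphocyte development and in leukaemia. A short hairpin RNA is processed into a small RNA that guides cleavage or silencing of matching transcripts, and hairpins of different sequence against the same transcript share that target but not their other partial matches. The study's title concerns how ZEB1 in leukaemia cells shapes T cell activity and Th17 cells. A direct comparison of the hairpins asks in which genes the populations made with them are not alike.

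The markers measured in these arrays hold T cell, mast cell and NK cell genes at high levels beside the myeloid label. Several other markers of those types were low. Cd3g, a chain of the T cell receptor complex, stood at 15.38 to 15.71 in the hairpin arrays, Cd3e reached 13.41 to 15.09 there, and the pan-leukocyte gene Ptprc stood at 14.40 to 15.31. Cd3d, another chain of that complex, lay at 10.65 to 12.70, while the T cell coreceptor genes lay lower, Cd4 at 7.82 to 8.52, Cd8a at 6.18 to 6.97 and Cd8b1 at 5.58 to 6.58. Cpa3, a mast cell and progenitor protease, lay at 15.23 to 15.66. The other mast cell and basophil markers were low, the IgE receptor chains Fcer1a at 5.45 to 5.86 and Ms4a2 at 6.07 to 6.59, and the protease Mcpt8 at 6.55 to 8.59. In the same arrays the neutrophil granule genes Mpo and Elane stayed at or below 7.79 and 6.06, the macrophage receptor Csf1r at or below 5.71, and the NK receptor Ncr1 at or below 4.80. Klrd1, another NK receptor gene, stood at 11.73 to 14.55, the 1 of 6 NK cell markers above the median level. The megakaryocyte markers Gp9 and Itga2b lay at 9.21 to 9.54 and 8.66 to 9.20, and Pf4 at 6.39 to 7.02. Of the leukocyte markers besides Ptprc, Spn was low, at 5.59 to 5.86. Cd44 measured 10.20, 9.71 and 11.71 in shZeb1_C and 8.98, 8.16 and 8.41 in shZeb1_D. Its groups did not overlap, and the difference was not called (-2.02 ± 0.45, limma adjusted p = 0.0947). By limma, no member of the T cell, NK cell, B cell, macrophage, neutrophil, erythroid, megakaryocyte, mast cell, stromal or leukocyte marker lists passed the test between the hairpins, and 6 of their 39 had an unadjusted p under 0.05.

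Zeb1 itself was lower in shZeb1_D than in shZeb1_C, though the difference missed the threshold. It measured 10.41, 10.01 and 10.34 in shZeb1_C, 9.56, 9.26 and 9.40 in shZeb1_D, and 10.52, 10.29 and 10.56 in Scr. All 3 shZeb1_D arrays lay below all 3 shZeb1_C arrays, while the shZeb1_C and Scr arrays overlapped. The difference was -0.85 ± 0.16 (SE, n = 3 arrays per group; 95% confidence interval -1.22 to -0.48), with a limma adjusted p = 0.056 and an exact two-sided permutation p = 0.1, the smallest that 3 arrays against 3 allow. In linear terms shZeb1_D stood at 55.6% of shZeb1_C, and shZeb1_C and shZeb1_D at 86.9% and 48.3% of Scr. On a list of Zeb1 and its corepressors, 11 of 15 differences were below 0 (median -0.21), limma called none, and 4 had an unadjusted p under 0.05.

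Between the hairpins, 166 genes differed at a limma adjusted p under 0.05, which is 0.848% of the probe sets tested. Of these, 60 (0.307%) were higher and 106 (0.542%) lower in shZeb1_D. At an unadjusted p under 0.05 there were 2282. In all 166 the 3 arrays of one hairpin lay beyond the 3 of the other, a separation that 2984 of all tested probe sets (15.2%) showed. The called differences were large: 162 were at least 1 in size, 58 at least 2 and 13 at least 4, where the median size over all probe sets was 0.20. Of the 13 beyond 4, 11 were lower and 2 higher in shZeb1_D. The called genes were bright in at least 1 hairpin, with the exception of P2rx7, named here after its values were seen, whose group means both lay below the median level. By chromosome, Ifitm2, Nkg7, Nav2 and Arnt2 lie on 7, Cd48, Serpinb5 and Fcgr3 on 1, Atp8b4 and Hc on 2, Lcp2 on 11, Sgpp1 on 12, Gcnt2 on 13 and Gzmb on 14.

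The Scr arrays show which population lay apart. A hairpin was said to depart where its mean lay at least 2 times as far from the Scr mean as that of the other hairpin. By that rule shZeb1_C departed in 76 of the 166 genes (57 lower and 19 higher in shZeb1_D), and shZeb1_D departed in 52 (23 lower and 29 higher). In 36 the Scr mean lay between the hairpins with neither that far ahead, and in 2 (Jaml and Plcd3) both hairpins lay on the same side of Scr at comparable distance. Over all tested probe sets the corresponding shares were 21.6%, 36.5%, 11.5% and 30.4%, against 45.8%, 31.3%, 21.7% and 1.2% of the called genes. These classes describe the called genes and were not tested, and the differences from Scr share the Scr arrays. The count of 166 depended on single arrays: it was 49 without shZeb1_D 15, 62 without shZeb1_C 10 and 84 without shZeb1_C 11, and 81 with the 6 hairpin arrays alone in the fit. The class of 76 held 20 genes without shZeb1_D 15, 35 without shZeb1_C 10, 40 without shZeb1_D 14 and 46 without shZeb1_C 11, and the class of 52 held 16 without shZeb1_D 15, 18 without shZeb1_C 10, 22 without shZeb1_C 11 and 29 without Scr 9. Which class was larger was not stable. Without shZeb1_D 14 the class of 52 held 48, more than the 40 of the other. The order also turned with array weights (195 against 426) and with a within-group component as a covariate (381 against 688).

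**Figure D1:**
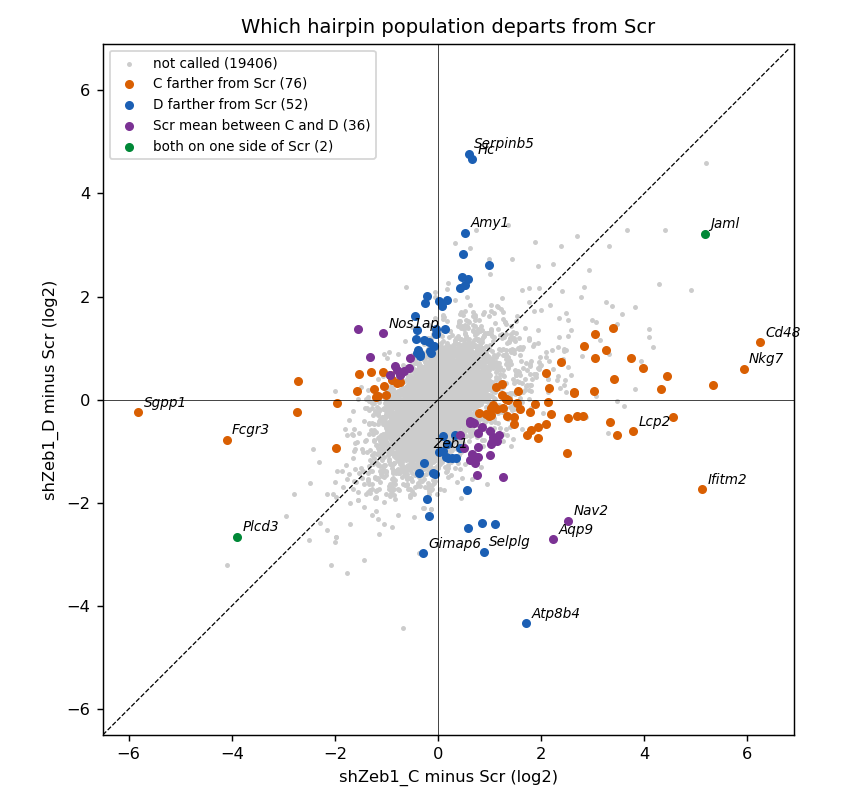
Difference of shZeb1_C from Scr (x axis) against that of shZeb1_D from Scr (y axis), both in log2, for each of the 19572 probe sets, coloured by class for the 166 called between the hairpins; both axes share the Scr arrays. Genes off the dashed line of equal departure lie mostly along the horizontal axis (shZeb1_C departs, as Cd48 and Sgpp1) or the vertical axis (shZeb1_D departs, as Serpinb5 and Gimap6).

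Genes of cytotoxic and T cell receptor programmes made up several of the largest falls from shZeb1_C to shZeb1_D, and in them shZeb1_D lay near Scr. Nkg7, a membrane protein of cytotoxic granules, measured 9.11, 9.79 and 12.65 in shZeb1_C, 4.63, 6.12 and 4.81 in shZeb1_D, and 4.49, 4.32 and 4.94 in Scr. The shZeb1_C arrays did not overlap either of the other groups, and shZeb1_C 12 was the highest of them. Nkg7 was 40.2-fold lower in shZeb1_D (-5.33 ± 0.80, limma adjusted p = 0.0189). Gzmb, the serine protease granzyme B, measured 11.09, 8.78 and 11.31 in shZeb1_C, 5.97, 6.79 and 6.04 in shZeb1_D and 6.41, 5.75 and 6.02 in Scr, a difference of -4.13 ± 0.59 (adjusted p = 0.0154). Those were the called genes among 19 cytotoxic granule genes, 11 of which had a difference below 0 (median -0.06). Over all probe sets 0.848% were called, 0.542% lower and 0.307% higher in shZeb1_D. The list counts here and below stand beside these shares. They are descriptions, since the lists were chosen with earlier results known. The call of Nkg7 was lost without shZeb1_D 13 or 15 (adjusted p up to 0.102) and that of Gzmb without shZeb1_C 10 or shZeb1_D 15 (up to 0.0899), and both with the 6 hairpin arrays alone (0.0837 and 0.0716).

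Among the lectin-like receptors of NK cells, which sense MHC class I molecules and their relatives, 2 of 25 passed the test and both were lower in shZeb1_D. The share called lower over all probe sets was 0.542%. The pseudogene Klra13-ps of the Ly49 cluster measured 10.25, 10.08 and 12.33 in shZeb1_C against 6.38, 6.99 and 6.77 in shZeb1_D (-4.17 ± 0.54, limma adjusted p = 0.00999). Klrc1, which encodes the inhibitory receptor NKG2A, measured 8.25, 7.00 and 9.20 against 5.43, 5.20 and 5.27 (-2.85 ± 0.44, adjusted p = 0.0221). Klra7 gave a similar size without passing (-3.95 ± 0.84, adjusted p = 0.0778), its shZeb1_C values of 11.25, 11.58 and 14.24 being widely spread. Klrb1, named after its values were seen, had the opposite sign, at 2.81 ± 0.65 (adjusted p = 0.11). Members of this cluster are close copies of each other, so how far a probe set reads its own gene is uncertain. In 20 of 25 the difference was below 0, with a median of -0.26. The Klra13-ps call was lost without shZeb1_D 15 (adjusted p = 0.0587), and that of Klrc1 without Scr 9, shZeb1_C 10 or any shZeb1_D array (up to 0.106) and with the 6 hairpin arrays alone (0.0908).

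Adaptors downstream of the T cell receptor followed the same layout. Lcp2, the adaptor SLP-76 that nucleates signalling after receptor engagement, measured 12.29, 11.44 and 12.22 in shZeb1_C, 7.66, 7.84 and 7.27 in shZeb1_D, and 8.71, 8.03 and 7.87 in Scr. The shZeb1_D arrays lay just below the Scr arrays and far below shZeb1_C, a 21.0-fold difference (-4.39 ± 0.30, limma adjusted p = 0.000842). Themis, needed for thymocyte selection, fell from a mean of 10.06 to 8.26 (-1.80 ± 0.32), and Pdcd1, the inhibitory receptor PD-1, from 8.03 to 5.52 (-2.51 ± 0.45). These were 3 of 26 T cell receptor signalling genes, none of which was called higher (median -0.30), beside 0.542% of all probe sets called lower. Sla, an adaptor that dampens receptor signalling, stood outside that list and differed by -3.55 ± 0.53. The calls of Themis and Pdcd1 were lost in the fit of the 6 hairpin arrays (adjusted p = 0.121 and 0.137) and on leaving out any array but shZeb1_C 11 (Themis, up to 0.174) or any but shZeb1_C 10 and 11 (Pdcd1, up to 0.137). That of Sla was lost without shZeb1_C 10, shZeb1_C 11, shZeb1_D 14 or shZeb1_D 15 (up to 0.0977).

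The marker lists that touch these genes had the following levels. Of 6 NK cell markers, only Klrd1 lay above the median level, and the list mean per array ran from 6.66 to 6.84 in shZeb1_C, from 6.21 to 6.45 in shZeb1_D and from 5.78 to 6.61 in Scr. Eomes, Tbx21, Il2rb and Ncr1 stayed at or below 5.65 in every array. The list mean of 6 T cell markers ran from 10.21 to 10.55 in shZeb1_C and from 10.17 to 10.54 in shZeb1_D. The part of such cells in the results was not tested, and in bulk RNA fewer cells of a type and less RNA per cell cannot be told apart.

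Cd48 gave the largest departure of shZeb1_C from Scr among the called genes. This glycolipid-anchored member of the SLAM family, a ligand of the 2B4 receptor, measured 12.76, 12.86 and 14.79 in shZeb1_C, 7.64, 9.41 and 8.00 in shZeb1_D, and 7.53, 7.32 and 6.83 in Scr. Both hairpin groups were above all Scr arrays, shZeb1_C by 6.24 and shZeb1_D by 1.12 on average. The direct difference was -5.12 ± 0.59 (34.8-fold, limma adjusted p = 0.00665), and it passed whichever array was left out. It was the 1 called gene among 12 of the SLAM and CD2 family. Cd244a, which encodes 2B4, differed by -1.36 ± 0.68 with overlapping arrays (adjusted p = 0.483).

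**Figure D2:**
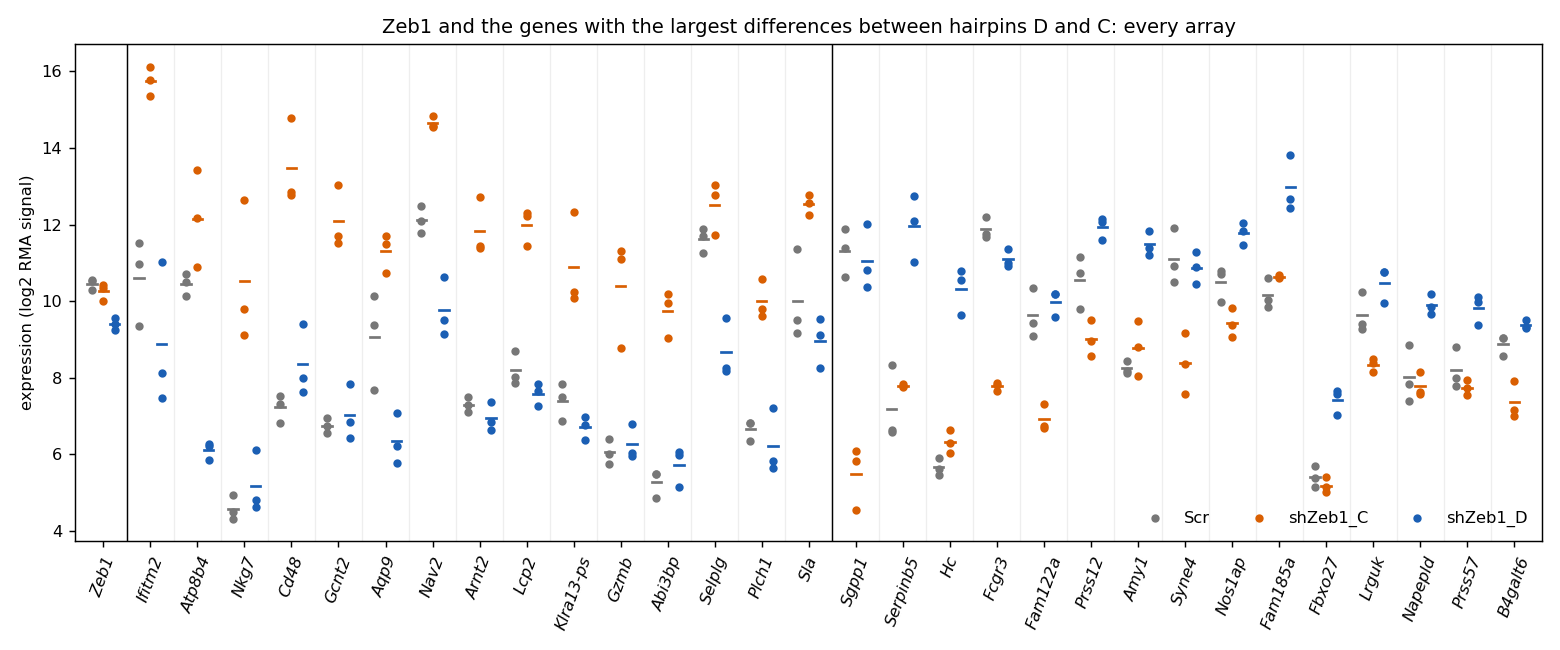
Expression (log2 RMA signal) of Zeb1 and of the 15 called genes with the largest falls and the 15 with the largest rises from shZeb1_C to shZeb1_D, one point per array and a bar for each group mean. In Nkg7, Cd48, Gcnt2, Arnt2 and Gzmb the shZeb1_C points stand alone at the top, in Sgpp1 and Fcgr3 they stand alone at the bottom, and in Serpinb5, Hc and Fbxo27 the shZeb1_D points stand alone at the top.

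Interferon-related genes were lower in shZeb1_D where they passed. Ifitm2, a membrane protein that restricts entry of enveloped viruses, showed the largest difference of all. It measured 16.12, 15.34 and 15.77 in shZeb1_C, 7.48, 11.03 and 8.12 in shZeb1_D, and 11.53, 9.35 and 10.96 in Scr. The shZeb1_C arrays were tight and high while shZeb1_D 14 overlapped Scr, and the mean difference was 117-fold (-6.87 ± 0.86, limma adjusted p = 0.00881, but 0.0587 without shZeb1_D 15). The other 5 measured Ifitm genes had differences between -1.64 and -0.04 and none was called. Ifitm genes are close relatives, so cross-hybridisation among them cannot be told apart from expression.

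Of 52 interferon-stimulated genes, 2 were called, both lower in shZeb1_D, beside 0.542% of all probe sets called lower. Gbp4, a guanylate-binding protein, measured 11.72, 12.02 and 12.24 in shZeb1_C, 9.99, 10.02 and 10.00 in shZeb1_D, and 8.52, 8.32 and 8.97 in Scr. The 3 groups formed separate steps, with a direct difference of -1.99 ± 0.20 (limma adjusted p = 0.00331). Ddx58, the RNA sensor RIG-I, fell from a mean of 10.61 to 9.03, against a Scr mean of 8.52 (-1.58 ± 0.18, adjusted p = 0.00665). Its shZeb1_D arrays, at 8.91, 9.12 and 9.05, all lay above its Scr arrays, at 8.31, 8.46 and 8.79. Both genes passed with any single array left out. The list median was -0.19, with 38 of 52 below 0.

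Antigen presentation genes of MHC class I gave 1 call among 27, and 25 of the 27 differences were below 0. Their median was -0.38 against 0.04 over all probe sets. Of the 27, 25 lay above the median level. Genes above that level had a median of -0.02 along the chromosomes, and 47.5% of them were higher in shZeb1_D. The gene that passed was Erap1, the protease that trims peptides before loading. Erap1 measured 10.96, 11.22 and 11.14 in shZeb1_C and 10.47, 9.95 and 10.07 in shZeb1_D (-0.94 ± 0.17, limma adjusted p = 0.0449), and that call was lost on leaving out any array but shZeb1_D 13 (up to 0.19) and with the 6 hairpin arrays alone (0.128). The peptide transporter Tap1 (-1.28 ± 0.43, adjusted p = 0.289) and its partner Tapbp (-1.25 ± 0.37, adjusted p = 0.209) did not pass. Among 11 MHC class II genes limma called none (1 at an unadjusted p under 0.05), and the median was 0.12.

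Among cytokine receptor chains 4 were lower in shZeb1_D and none higher. Il6ra, the ligand-binding chain of the interleukin-6 receptor, measured 10.11, 11.21 and 10.86 in shZeb1_C, 7.93, 8.61 and 7.34 in shZeb1_D, and 10.18, 8.97 and 9.23 in Scr. Here the Scr mean lay between the hairpins, which differed by -2.77 ± 0.42 (limma adjusted p = 0.0202). Il27ra (-2.45 ± 0.44), Il21r (-2.41 ± 0.33) and Tnfrsf1a, the main tumour necrosis factor receptor (-2.29 ± 0.39), were lower too, with shZeb1_C the departing population in each. Those 4 were the called genes among 42 receptor chains, whose median was -0.11, beside 0.542% of all probe sets called lower. In the fit of the 6 hairpin arrays the calls of Il27ra, Il21r and Tnfrsf1a were lost (adjusted p = 0.0948, 0.0689 and 0.0748). Single arrays ended the calls of Il6ra (without shZeb1_C 11 or 12 or shZeb1_D 13 or 15, up to 0.0977), Il21r (shZeb1_C 10 or shZeb1_D 15, up to 0.084), Il27ra (any but Scr 8 and shZeb1_C 12, up to 0.186) and Tnfrsf1a (any but Scr 7 and 8, up to 0.134).

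Genes of the pathways downstream and of the cytokines themselves did not pass. None of 23 JAK, STAT and SOCS genes was called by limma (5 at an unadjusted p under 0.05; median -0.27, 17 below 0), with Stat4 at -1.04 ± 0.43 and Socs6 at -1.03 ± 0.33. None of 23 cytokines of T helper cells was called (5 unadjusted; median 0.16, 18 above 0). The nearest was Tnf, at 7.96, 7.46 and 8.03 in shZeb1_C and 5.53, 6.0 and 6.46 in shZeb1_D, a difference of -1.82 ± 0.35 (limma adjusted p = 0.0538). Its Scr arrays, at 7.87, 8.82 and 7.59, lay with shZeb1_C. Tgfb1, transforming growth factor beta 1, differed by -0.87 ± 0.28 (adjusted p = 0.27). Pdcd1 was the called gene among 25 immune checkpoint genes. None of 55 chemokines and chemokine receptors was called (4 unadjusted; median 0.04), Xcl1, a chemokine of activated lymphocytes, being the largest at -3.18 ± 0.79 with shZeb1_C values of 10.97, 9.89 and 13.57 (adjusted p = 0.132).

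Adhesion genes gave 6 calls among 34 leukocyte integrins and selectin ligand genes, 5 lower and 1 higher in shZeb1_D. The shares over all probe sets were 0.542% lower and 0.307% higher. Gcnt2, which adds the branches of I blood group chains on glycans, measured 11.52, 11.71 and 13.03 in shZeb1_C, 6.42, 7.84 and 6.86 in shZeb1_D, and 6.74, 6.56 and 6.96 in Scr. It belonged with Nkg7 and Cd48 in having shZeb1_C alone apart (-5.05 ± 0.44, 33.1-fold, limma adjusted p = 0.00196). Selplg, the P-selectin ligand PSGL-1 on which leukocytes roll, had the other layout: 11.73, 13.02 and 12.76 in shZeb1_C, 8.17, 9.57 and 8.25 in shZeb1_D and 11.26, 11.89 and 11.70 in Scr. There shZeb1_D stood alone, 14.3-fold below shZeb1_C (-3.84 ± 0.43, adjusted p = 0.00578).

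The integrin chains split in direction. Itga2 (-1.79 ± 0.29) and Itgae, the CD103 chain that binds E-cadherin (-1.80 ± 0.26), were lower in shZeb1_D. Itga6, a laminin receptor chain, was higher, at 11.78, 11.24 and 11.44 against 10.28, 10.59 and 10.02 (1.19 ± 0.20, limma adjusted p = 0.0287). Jaml, a junctional adhesion receptor, measured 13.12, 12.62 and 13.71 in shZeb1_C, 11.08, 11.75 and 10.76 in shZeb1_D, and 8.22, 7.72 and 8.00 in Scr. Both hairpins were thus far above Scr, and shZeb1_C exceeded shZeb1_D (-1.95 ± 0.32, adjusted p = 0.0283). The calls of Itga2, Itgae, Itga6 and Jaml were lost in the fit of the 6 hairpin arrays (adjusted p = 0.102, 0.0762, 0.102 and 0.0948) and on leaving out single arrays: any but Scr 8 and shZeb1_D 13 for Itga2 (up to 0.113), shZeb1_C 11 or shZeb1_D 15 for Itgae (up to 0.0881), and Scr 7, Scr 9, shZeb1_C 10, shZeb1_C 12, shZeb1_D 13 or shZeb1_D 15 for Itga6 and Jaml (up to 0.122 and 0.129).

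Atp8b4 led the 23 genes in which shZeb1_D was lower and stood apart from the other groups. This P4-type ATPase, of the family that flips phospholipids between membrane leaflets, measured 13.42, 12.17 and 10.88 in shZeb1_C, 6.27, 6.23 and 5.85 in shZeb1_D, and 10.13, 10.70 and 10.50 in Scr. The shZeb1_D arrays were below the median level of all genes in each case, while shZeb1_C and Scr were both well above it (-6.04 ± 0.52, 65.8-fold, limma adjusted p = 0.00196). Of 26 flippase and scramblase genes it was the only one called, and the list median was 0.10. Gimap6, a GTPase of lymphocytes, measured 11.90, 11.04 and 11.29 in shZeb1_C, 8.66, 9.11 and 8.41 in shZeb1_D, and 11.10, 11.69 and 12.32 in Scr (-2.68 ± 0.34, adjusted p = 0.00899, and 0.0587 without shZeb1_D 15).

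Olfm3, an olfactomedin family gene, measured 12.52, 11.31 and 12.41 in shZeb1_C and 8.74, 8.84 and 8.13 in shZeb1_D (-3.51 ± 0.33). Cnrip1, whose product binds the cannabinoid receptor CB1, measured 9.44, 9.98 and 10.71 against 6.54, 7.39 and 6.46 (-3.25 ± 0.34). Shtn1, the neuronal polarity protein shootin, measured 11.85, 11.44 and 11.25 against 8.19, 9.10 and 8.04 (-3.07 ± 0.29). In these 3 the Scr means of 10.98, 9.19 and 10.93 were nearer to shZeb1_C, and every call passed whichever array was left out. The actin cytoskeleton gene Zyx also belonged to this class, at -1.0 ± 0.17 (limma adjusted p = 0.0363), lost on leaving out any array but Scr 8 and shZeb1_D 13 (up to 0.161) and with the 6 hairpin arrays alone (0.0948).

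Further genes of the class in which shZeb1_C stood apart above the others had roles outside immune signalling. Arnt2, a basic helix-loop-helix partner of hypoxia and xenobiotic sensors, measured 11.38, 11.43 and 12.71 in shZeb1_C, 6.86, 7.37 and 6.64 in shZeb1_D, and 7.10, 7.28 and 7.49 in Scr (-4.88 ± 0.35, 29.5-fold, limma adjusted p = 0.000842). Abi3bp, an extracellular matrix protein, measured 9.05, 10.19 and 9.96 against 5.15, 5.99 and 6.07 (-4.0 ± 0.35). Plch1, a phospholipase C, measured 9.62, 9.80 and 10.58 against 5.84, 7.21 and 5.64 (-3.77 ± 0.41). In each the Scr and shZeb1_D means differed by less than 0.5, and each call passed with any single array left out. Arnt2, the hormone gene Adm (-1.98 ± 0.32) and Ndrg1 (-2.58 ± 0.44) were the called members of 39 glycolysis and hypoxia genes, whose median was 0.09. The calls of Adm and Ndrg1 were lost with the 6 hairpin arrays alone (adjusted p = 0.0762 and 0.0913) and without shZeb1_C 10 or any shZeb1_D array. Adm was also lost without shZeb1_C 11 (up to 0.0974), and Ndrg1 without Scr 9 or shZeb1_C 12 (up to 0.132).

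Sgpp1 led the 19 genes in which shZeb1_C stood apart below the other groups. Its product, a phosphatase of the endoplasmic reticulum, removes the phosphate from sphingosine 1-phosphate. It measured 5.82, 4.56 and 6.09 in shZeb1_C, 12.01, 10.36 and 10.81 in shZeb1_D, and 11.87, 10.64 and 11.38 in Scr. The shZeb1_C arrays were all below the median level and the shZeb1_D and Scr arrays overlapped (5.57 ± 0.52, 47.5-fold, limma adjusted p = 0.00247). Of 43 sphingolipid enzymes 1 other was called, Smpdl3a, which was lower in shZeb1_D (-0.88 ± 0.15, adjusted p = 0.0291, lost on leaving out any array but Scr 8, up to 0.121, and with the 6 hairpin arrays alone, 0.106). B4galt6, which makes lactosylceramide, was called outside that list, at 7.15, 7.92 and 7.00 in shZeb1_C against 9.31, 9.52 and 9.33 in shZeb1_D (2.03 ± 0.25).

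Fcgr3, a low-affinity receptor for IgG, had the smallest adjusted p of the comparison. It measured 7.80, 7.87 and 7.66 in shZeb1_C, 10.93, 10.99 and 11.37 in shZeb1_D, and 12.19, 11.75 and 11.68 in Scr. The spread within each group was under 1 unit, and shZeb1_D lay just below Scr (3.32 ± 0.19, 9.99-fold, limma adjusted p = 0.000399). It was the called gene among 15 Fc receptors, whose median was 0.01. Fcgr1 differed by -1.03 ± 0.40 (adjusted p = 0.355). Fc receptor genes share sequence, so a contribution of relatives to this probe set is uncertain.

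Fam122a, an inhibitor of the phosphatase PP2A, measured 6.70, 6.74 and 7.32 in shZeb1_C, 9.58, 10.20 and 10.19 in shZeb1_D and 9.44, 10.35 and 9.09 in Scr (3.07 ± 0.33, limma adjusted p = 0.00463). Syne4, a nesprin of the outer nuclear membrane, measured 7.59, 9.17 and 8.37 against 10.46, 10.90 and 11.27 (2.50 ± 0.45, adjusted p = 0.0442). Gphn, the scaffold gephyrin, measured 8.24, 7.72 and 7.82 against 9.80, 9.61 and 10.04 (1.89 ± 0.18, adjusted p = 0.00277). In all 3 the shZeb1_D arrays overlapped the range of Scr, while shZeb1_C lay below it. The call of Syne4 was lost with the 6 hairpin arrays alone (adjusted p = 0.0762) and on leaving out any array but Scr 8 and shZeb1_C 11 (up to 0.195), whereas those of Fam122a and Gphn passed with any array left out.

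Serpinb5 and Hc led the 29 genes in which shZeb1_D was higher and stood apart from the other groups. Serpinb5, the clade B serpin maspin, measured 7.78, 7.77 and 7.83 in shZeb1_C, 11.03, 12.75 and 12.10 in shZeb1_D, and 6.58, 8.34 and 6.65 in Scr (4.17 ± 0.52, 18.0-fold, limma adjusted p = 0.00852, and 0.0587 without shZeb1_D 15). It was the called gene among 17 clade B serpins, whose median was 0.00. Hc, the gene of complement component C5, measured 6.31, 6.64 and 6.04 in shZeb1_C, 10.56, 9.63 and 10.79 in shZeb1_D, and 5.92, 5.62 and 5.46 in Scr. Both shZeb1_C and Scr were below the median level for Hc, and shZeb1_D was 16-fold above shZeb1_C (4.0 ± 0.30, adjusted p = 0.001). Of 31 complement genes it was the one that passed (median 0.11).

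Amy1, an amylase gene, measured 8.04, 8.81 and 9.47 in shZeb1_C and 11.21, 11.40 and 11.84 in shZeb1_D (2.71 ± 0.33, limma adjusted p = 0.00782), with the caution that amylase genes are near-identical copies. Fbxo27, an F-box protein that recognises glycoproteins, measured 5.02, 5.15 and 5.40 against 7.65, 7.58 and 7.02 (2.23 ± 0.22, adjusted p = 0.00285). Prss57, a serine protease of neutrophil granules, measured 7.73, 7.95 and 7.55 against 9.38, 10.12 and 9.98 (2.08 ± 0.29, adjusted p = 0.0141). In each of the 3 the shZeb1_D arrays lay above every Scr array. The call of Prss57 was lost without shZeb1_C 10, shZeb1_D 14 or shZeb1_D 15 (up to 0.084). Of 37 myeloid differentiation genes 3 were called: Fcgr3 higher, and the channel gene Aqp9 and Ly6e lower in shZeb1_D. Ly6e differed by -1.04 ± 0.16 (adjusted p = 0.0214), lost with the 6 hairpin arrays alone (0.0748) and without shZeb1_C 10, shZeb1_C 12, shZeb1_D 14 or shZeb1_D 15 (up to 0.107).

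In 47 of the called genes all 3 Scr arrays lay between the hairpins, 34 with shZeb1_C above and 13 with shZeb1_D above. This count was made over called genes alone, which were called for their gap between the hairpins, and no share over all probe sets was taken. It cuts across the classes above, since it includes Atp8b4 and Lcp2. Nav2, a microtubule-associated neuron navigator, was the clearest case: 14.56, 14.54 and 14.83 in shZeb1_C, 12.08, 11.79 and 12.47 in Scr, and 9.51, 10.62 and 9.15 in shZeb1_D. The shZeb1_C mean was 2.53 above Scr and the shZeb1_D mean 2.35 below it, for a direct difference of -4.88 ± 0.35 (29.5-fold, limma adjusted p = 0.000842). Aqp9, a channel for water and glycerol, measured 11.50, 10.73 and 11.69 in shZeb1_C, 10.14, 7.68 and 9.38 in Scr and 7.08, 5.77 and 6.21 in shZeb1_D (-4.95 ± 0.59, adjusted p = 0.00729).

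Smaller steps of this kind were found in a stem cell gene and a cell cycle gene. Bmi1, a Polycomb protein needed for self-renewal of blood stem cells, measured 11.61, 11.73 and 11.55 in shZeb1_C, 11.02, 10.61 and 10.93 in Scr, and 10.20, 10.44 and 9.96 in shZeb1_D (-1.43 ± 0.17, limma adjusted p = 0.00793). Ccne1, the cyclin E1 that drives entry into S phase, measured 14.73, 15.08 and 15.06 in shZeb1_C and 13.88, 14.08 and 13.55 in shZeb1_D (-1.12 ± 0.19, adjusted p = 0.0306). Each was the called member of its list, 29 stem cell and leukaemia regulators and 44 DNA replication genes, whose medians were -0.05 and -0.03. The Bmi1 call passed whichever array was left out, while that of Ccne1 was lost with the 6 hairpin arrays alone (0.0924) and on leaving out any array but Scr 8 and shZeb1_D 14 (up to 0.125).

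With the order turned, Prss12, the protease neurotrypsin, measured 9.50, 8.96 and 8.58 in shZeb1_C, 9.80, 10.73 and 11.16 in Scr, and 12.07, 11.60 and 12.15 in shZeb1_D (2.93 ± 0.36, limma adjusted p = 0.00793, and 0.0549 without shZeb1_D 15). Nos1ap, an adaptor of neuronal nitric oxide synthase, measured 9.07, 9.39 and 9.83 in shZeb1_C, 10.70, 10.79 and 9.99 in Scr, and 12.05, 11.82 and 11.47 in shZeb1_D (2.35 ± 0.27, adjusted p = 0.00672). Both thus rose from shZeb1_C to shZeb1_D through the control level. Plcd3, a phospholipase C, was below Scr in both populations, at 7.13, 7.01 and 7.05 in shZeb1_C and 7.98, 8.66 and 8.26 in shZeb1_D against 11.00, 11.12 and 10.76, and its hairpin groups still differed by 1.24 ± 0.19 (adjusted p = 0.0214, but 0.0762 with the 6 hairpin arrays alone and up to 0.0977 on leaving out any shZeb1_C array or shZeb1_D 15).

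Programmes often examined with ZEB1 gave few calls between the hairpins. None of 37 epithelial genes was called by limma (7 at an unadjusted p under 0.05; median 0.12, 28 above 0), the junction gene Pkp3 being nearest at -1.75 ± 0.33 (limma adjusted p = 0.0531). Of 37 mesenchymal and matrix genes Zyx was called (median -0.21). In that list S100a4 measured 10.56, 9.34 and 14.80 in shZeb1_C and 7.30, 7.92 and 8.28 in shZeb1_D, groups that do not overlap, and the difference of -3.73 ± 1.14 was not called (adjusted p = 0.232 by limma). Sparc was high in shZeb1_C 12 alone, at 13.73, where the other shZeb1_C arrays had 5.71 and 5.94. None of 41 mitosis genes (median 0.04), 33 p53 and apoptosis genes (median -0.11) or 16 drug efflux pumps (median -0.01) was called, with 6, 3 and 1 at an unadjusted p under 0.05. Abcb1a, the P-glycoprotein pump, stood high in both hairpins, at 13.49, 13.69 and 13.37 in shZeb1_C and 13.51, 12.73 and 13.08 in shZeb1_D against 10.75, 10.14 and 10.86 in Scr. The direct difference was -0.41 with a 95% confidence interval of -0.97 to 0.15.

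**Figure D3:**
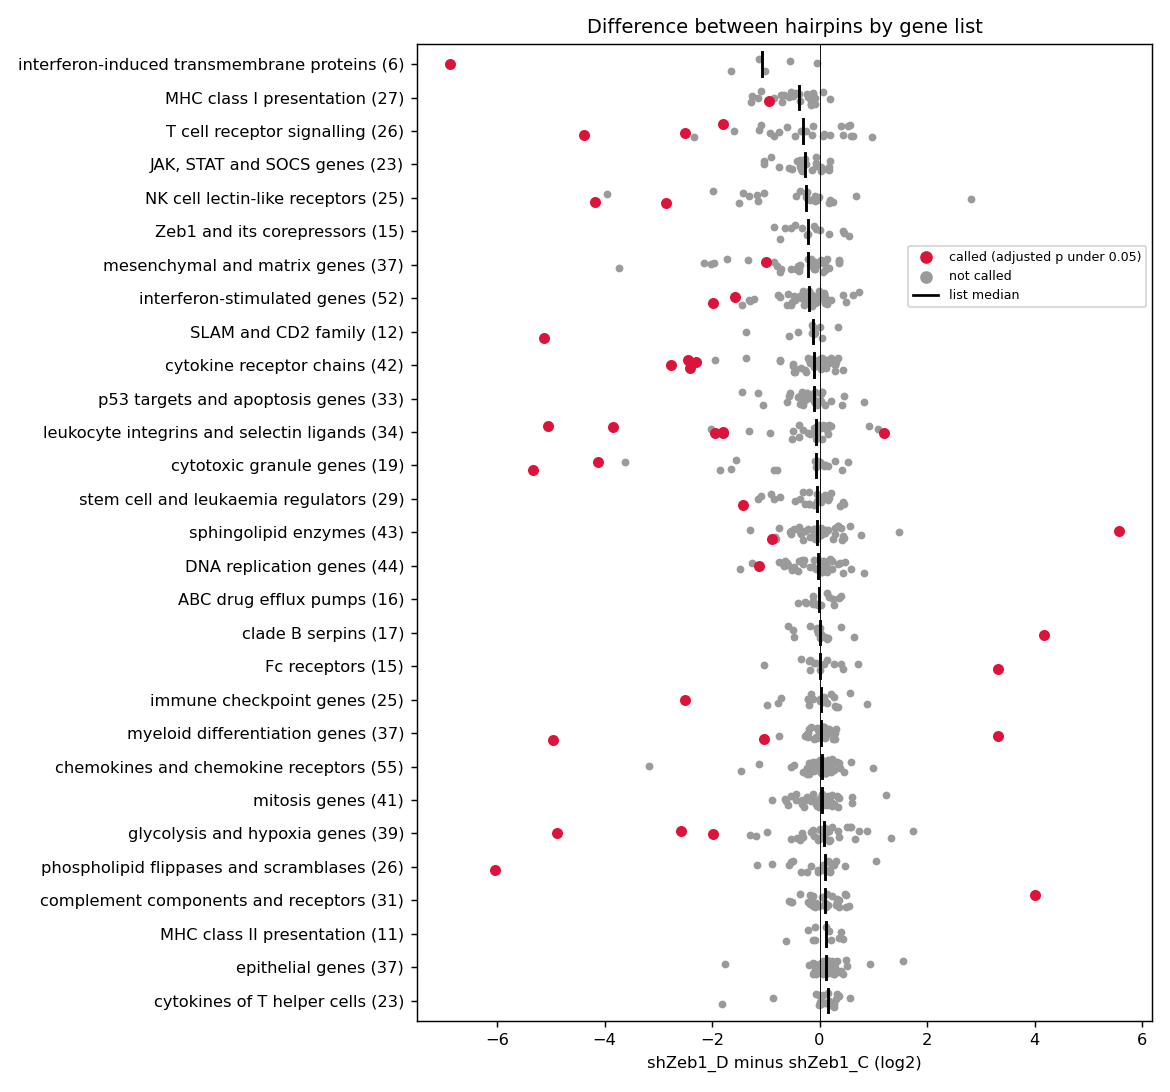
Difference between the hairpins (shZeb1_D minus shZeb1_C, log2) for each member of 29 gene lists, with the number of measured members after each name, called genes in red and the list median as a black bar. Medians lie between -0.38 and 0.16 apart from the -1.07 of the 6 Ifitm genes, and the called genes run from Ifitm2 at -6.87 to Sgpp1 at 5.57, some of them, such as Erap1 at -0.94, within the range of uncalled members of their list.

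Of the 60 genes higher in shZeb1_D, 28 lay in a few chromosomal stretches. In the order of 9750 expressed genes, 6 stretches, chosen from earlier results of these data so that their shifts are a description, hold 715 genes (7.33%), and 32 of the 143 called genes in that order (22.4%) lay in them, 28 higher and 4 lower in shZeb1_D. The stretch with the most called genes lay on chromosome 5 from Fam133b to Dok7, where 115 of 128 genes (89.8%) were higher in shZeb1_D, against 47.5% of all expressed genes. The median difference there was 0.64, and 14 genes were called, all higher, where 1.47% of expressed genes were called. The stretch medians relative to Scr were -0.01, 0.05 and -0.05 in the shZeb1_C arrays and 0.81, 0.55 and 0.62 in the shZeb1_D arrays. Every shZeb1_D array thus lay above the Scr level there, and the shZeb1_C arrays lay at it.

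Named called genes of that stretch were Fam185a (10.69, 10.62 and 10.61 in shZeb1_C against 13.82, 12.43 and 12.67 in shZeb1_D; 2.33 ± 0.34) and Napepld, which makes N-acylethanolamines (2.12 ± 0.35). Among the others, named after their values were seen, were Ptpn12, a tyrosine phosphatase (1.74), Krit1, a regulator of endothelial junctions (1.61), Cdk5 (1.24) and Dbf4, the activator of the replication kinase Cdc7 (1.13). Of the 29 higher called genes in which shZeb1_D departed, 14 lay on chromosome 5, which holds 1142 of the 19572 probe sets tested. These are not the same genes as those called in the stretch. Clock (1.76) lay outside the stretch. In Sh3bp2, inside it, shZeb1_C departed (-1.30 from Scr, against 0.53 for shZeb1_D). Both were named after their values were seen. The call of Fam185a was lost without shZeb1_C 10, shZeb1_C 11 or shZeb1_D 15 (up to limma adjusted p = 0.0762) and with the 6 hairpin arrays alone (0.0601), and that of Napepld without Scr 9, shZeb1_C 10, shZeb1_C 11 or any shZeb1_D array (up to 0.123).

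On chromosomes 12 and 19 the stretch medians had the same sign, with shZeb1_C the population that lay away from Scr. From Trappc12 to Sel1l on chromosome 12, 156 of 180 genes (86.7%) were higher in shZeb1_D, with a median of 0.47 and 8 genes called, all higher. The shZeb1_C arrays lay at -0.42, -0.53 and -0.55 relative to Scr and the shZeb1_D arrays at -0.09, -0.06 and -0.01. Sgpp1 and Gphn belong to this stretch, with differences of 5.57 and 1.89 beside the stretch median of 0.47. From Abhd17b to Pdlim1 on chromosome 19, 47 of 58 genes (81.0%) were higher, with a median of 0.66 and 4 called, Fam122a and Plgrkt among them. There the shZeb1_C arrays lay at -0.88, -0.76 and -0.55 and the shZeb1_D arrays at -0.04, -0.07 and -0.09. Not every called gene had the layout of its stretch median. In Zfyve1 on chromosome 12, named after its values were seen, shZeb1_D departed (0.90 from Scr, against -0.41 for shZeb1_C). In Cbwd1 on 19 the Scr mean lay between the hairpins (-0.93 for shZeb1_C and 0.48 for shZeb1_D).

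The remaining stretches differed less between the hairpins. From Ampd1 to Hs2st1 on chromosome 3 the median was 0.27 over 128 genes, from Cap2 to Ptch1 on chromosome 13 it was -0.21 over 92, and on distal chromosome 2 from Zhx3 to Polr3k it was 0.01 over 129 genes, where both hairpins lay below Scr (-0.71 and -0.72). The lowest running median over 51 genes, -0.56, fell at the end of chromosome 19 from Nfkb2 to Sfxn4, outside the named stretches. There 7 genes were called lower, Shtn1 among them, with array medians of 0.09, 0.05 and 0.17 in shZeb1_C and -0.39, -0.14 and -0.35 in shZeb1_D. Chromosome 19 thus carried 1 stretch in which shZeb1_C lay low and 1 in which shZeb1_D did. Outside the 6 stretches lay 111 called genes of the order, 26 higher and 85 lower, and a further 23 called genes were not in the order. The part of these shifts in the difference of a single gene was not tested. Without the filter on expressed genes the medians were smaller, at 0.34 on chromosome 5, 0.22 on 12 and 0.20 on 19.

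**Figure D4:**
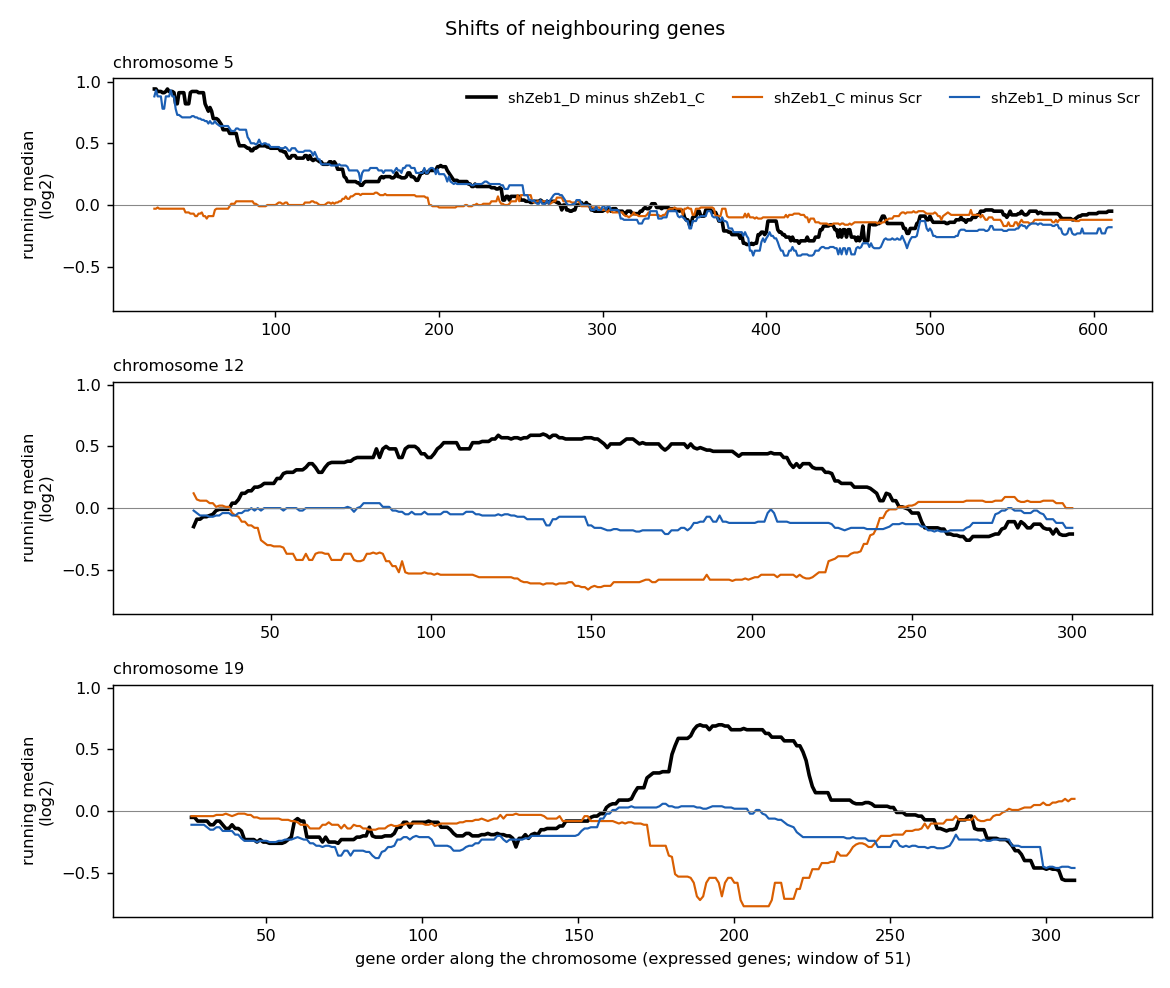
Running median over 51 expressed genes (log2) of the difference between the hairpins (black) and of each hairpin from Scr (orange for shZeb1_C, blue for shZeb1_D), along the gene order of chromosomes 5, 12 and 19. On chromosome 5 the black line follows the blue one up to 0.94, on chromosome 12 and in the middle of 19 it mirrors the orange one, and at the end of 19 it falls to -0.56 with the blue line.

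ZEB1 binds E-boxes of the form CACCTG, so promoters of the leading genes were searched for these letters on both strands (CAGGTG is the same site read on the other strand) from 250 bases before to 50 bases after each RefSeq start (GRCm38.p6). Promoters on the chromosome that carries Zeb1 and B4galt6 were left out of the search. Of 15691 tested genes with a promoter that was searched, 22.1% held the motif. The share was 24% (12 of 50) of the called genes higher in shZeb1_D and 18.3% (15 of 82) of those lower, 17.2% where shZeb1_C departed and 26.2% where shZeb1_D departed. With CACCTG counted on the strand of the gene alone, the share was 11.4% of all. It was 14.0% of the called genes higher in shZeb1_D and 9.76% of those lower. Where shZeb1_C departed it was 12.1%, and where shZeb1_D departed 11.9%. These shares are a description. Among the 30 genes with the largest differences, Klra13-ps, Abi3bp, Selplg, Sla, Prss57 and B4galt6 had no promoter that was searched. Of the rest, Nav2, Arnt2, Serpinb5, Fbxo27, Nos1ap and Syne4 had a promoter that held the letters. Those of Nav2, Arnt2 and Serpinb5 are shown because they represent the 3 layouts: Scr between the hairpins, shZeb1_C apart and shZeb1_D apart. The motif is in capitals, and its first base lies at positions -214, -199 and -23 relative to the start. The windows are chr7:48958823-48959122 on the plus strand for Nav2, chr7:84409989-84410288 on the minus strand for Arnt2 and chr1:106860925-106861224 on the plus strand for Serpinb5, each written 5′ to 3′ along the gene. A match is not a bound site, and genes with other starts have further promoters: the other listed one of Nav2, chr7:49245939-49246238, held none.
Nav2: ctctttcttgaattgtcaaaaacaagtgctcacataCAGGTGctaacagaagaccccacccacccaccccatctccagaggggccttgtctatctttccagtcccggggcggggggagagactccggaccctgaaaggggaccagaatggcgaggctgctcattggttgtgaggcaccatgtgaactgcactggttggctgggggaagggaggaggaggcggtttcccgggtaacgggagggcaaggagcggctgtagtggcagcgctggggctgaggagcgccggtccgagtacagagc
Arnt2: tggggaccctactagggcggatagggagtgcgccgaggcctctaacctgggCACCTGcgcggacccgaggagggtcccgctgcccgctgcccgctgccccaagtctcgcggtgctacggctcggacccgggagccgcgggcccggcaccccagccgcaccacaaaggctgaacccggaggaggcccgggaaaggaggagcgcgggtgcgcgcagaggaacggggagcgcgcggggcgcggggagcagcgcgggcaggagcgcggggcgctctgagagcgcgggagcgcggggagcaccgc
Serpinb5: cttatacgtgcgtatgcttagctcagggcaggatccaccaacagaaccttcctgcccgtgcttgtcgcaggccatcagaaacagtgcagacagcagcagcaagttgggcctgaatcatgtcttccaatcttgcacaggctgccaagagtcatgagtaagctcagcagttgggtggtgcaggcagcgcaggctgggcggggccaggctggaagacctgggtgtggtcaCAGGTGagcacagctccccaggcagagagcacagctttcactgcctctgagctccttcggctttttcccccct

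Within groups the arrays were not alike. The main component of the within-group differences held 57.9% of their variance and set Scr 8, shZeb1_C 12, shZeb1_D 14 and shZeb1_D 15 on one side and the other 5 arrays on the other. Each hairpin group thus holds arrays of both sides. With that component as a covariate 1377 genes were called, the 166 among them. The component comes from the within-group residuals, so it leaves the differences unchanged and mainly shrinks their errors. That the calls were kept is therefore no check of them. In 40 of the 166 the call held whichever array was left out, and these include Fcgr3, Arnt2, Nav2, Lcp2, Gcnt2, Atp8b4, Cd48, Hc and Sgpp1.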

How the data were processed

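Total RNA of 9 C1498 samples, 3 each of Scr, shZeb1_C and shZeb1_D, was measured on 1-colour arrays. Per the submitters' processing notes, the tools were RMA and the Transcriptome Analysis Console. These name no genome build for the arrays. The values the authors deposited are linear RMA signals that had lost their decimal point, so they were not used as written. Each of 199854 cells was returned to the place of the decimal point at which its log2 is a multiple of 0.01 (tolerance 1e-06 steps). Of 22206 probe sets, 19572 have 1 gene symbol in the platform annotation, and all of these matched a RefSeq table (GRCm38.p6) by gene identifier; 2634 are unnamed here.

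All 9 arrays were fitted with limma 3.58.1 in R 4.3.3 (group means, empirical Bayes), and shZeb1_D minus shZeb1_C was tested over 19572 probe sets with Benjamini-Hochberg adjustment at 0.05. The Scr arrays add 2 residual degrees of freedom, for 6 in all. Named genes were Zeb1, up to 15 called genes per direction by size with group values that do not overlap, up to 6 per direction and class of departure, and up to 6 called members of each of 39 gene lists, with the 2 largest where fewer than 3 were called. Members, lists and stretches were chosen with earlier results of these data known. Stretches used expressed genes, those above the median level. Alternatives covered the arrays in the fit, normalization, dim probe sets, the variance prior, array weights, a residual covariate, thresholds and probe sets per gene. The number of arrays limits the precision.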

Additional observations from a re-analysis of the deposited data

Results flagged for a closer look

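The direct test itself compares the departures of the hairpins from the same control, and 166 genes differed in it. In 19 genes of the naming rule whose call passed, the 3 arrays of each hairpin lay on opposite sides of every Scr array. These were drawn from called genes alone, and no share over all probe sets was taken. With shZeb1_C above the control and shZeb1_D below it, the differences were -6.04 in Atp8b4, -4.95 in Aqp9, -4.88 in Nav2, -4.39 in Lcp2, -3.51 in Olfm3, -3.25 in Cnrip1 and -3.07 in Shtn1. The receptor gene Il21r (-2.41), the kinase gene Grk5 (-2.21), the clathrin adaptor gene Hip1 (-1.95), the integrin chain Itga2 (-1.79), Bmi1 (-1.43), Ccne1 (-1.12) and Ly6e (-1.04) had the same order. With shZeb1_D above, the differences were 2.93 in Prss12, 2.35 in Nos1ap, 2.03 in B4galt6, 1.48 in Ust, which sulfates glycosaminoglycans, and 1.36 in the sodium channel gene Scn8a.

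The calls of Grk5 (without shZeb1_C 10, limma adjusted p = 0.0544), Hip1 (without shZeb1_C 10 or shZeb1_D 15, up to 0.0735), Ust (without any array but Scr 8 and shZeb1_C 12, up to 0.101) and Scn8a (without shZeb1_C 10, shZeb1_C 11, shZeb1_D 14 or shZeb1_D 15, up to 0.0881) were lost on leaving out single arrays, and that of Ust also with the 6 hairpin arrays alone (0.114). Those of Il21r, Itga2, Ccne1, Ly6e and Prss12 were lost as given above.

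Among the 2634 probe sets without a gene name here, which no comparison above uses, 18 (0.683%) passed the same limma threshold in a fit of all probe sets, 4 higher and 14 lower in shZeb1_D, with a largest size of 4.39.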

How the results depend on the processing

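No call of a named gene changed sign under any alternative run. The count of 166 genes became 81 with the 6 hairpin arrays alone, 833 with array weights, 1377 with the within-group component as a covariate and 50 at an adjusted p under 0.01, and ran from 49 to 162 over the arrays left out. The component was estimated from the residuals of the same arrays, so its p-values are too small. Genes in which shZeb1_C departed numbered 39, 195 and 381 under the same 3 fits (76 in the main analysis) and 20 to 68 over the arrays left out; those in which shZeb1_D departed numbered 26, 426 and 688 (52), 16 to 56, and 34 when called genes in the 6 stretches were left out, a restriction added after the data were seen. Zeb1 passed with array weights (-0.87, limma adjusted p = 0.024) and with the covariate (-0.85, 0.0115), within a range of 0.0115 to 0.213 over its alternatives. Quantile normalization, median subtraction, other variance priors, the filter on dim probe sets and 1 probe set per gene gave 142 to 195 genes. Of 63 named calls 25 passed without any single array and 38 were lost at least once; 24 were lost with the 6 hairpin arrays alone. The causes were not tested. The running medians were 0.97 and -0.94 at most over 31 genes, against 0.94 and -0.56 over 51. No paired analysis was possible because the groups share no replicate numbers.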
